A study of Homo sapiens with 2 samples.

Results

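The genes of nonhomologous end joining (NHEJ) were followed in HSC-1, an established human line of cutaneous squamous cell carcinoma (cSCC). The cells had received either the negative control siRNA (siNC) or an siRNA that targets the long noncoding RNA LINP1 (siLINP1). The 9 genes are XRCC5, XRCC6, PRKDC, LIG4, XRCC4, NHEJ1, DCLRE1C, TP53BP1 and POLL. They were chosen by name, for their place in the pathway in which LINP1 is known as a scaffold of Ku80 and DNA-PKcs, and all 9 were found among the 44591 genes of the count table. Total RNA was sequenced in 1 library per condition, so no difference has a replicate check, and every interval given covers counting error only. Per the sample labels, both cultures were transfected at 70% confluency, kept 6 h without serum and grown for a further 24 h in medium with serum. The methods of the study state another confluency and another time of collection.

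NHEJ rejoins the ends of a DNA double-strand break without a template. Ku70 and Ku80 form a ring that slides onto the broken end and recruits the kinase DNA-PKcs, the nuclease Artemis opens or trims the end, DNA polymerase lambda fills short gaps, and DNA ligase IV seals the break together with XRCC4 and XLF. The protein of TP53BP1 binds the chromatin around the break, limits resection of the end and so favours this pathway over homologous recombination. Most cells use the pathway through much of the cell cycle, and lymphocytes use it also to join their antigen receptor genes.

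Reads assigned to genes numbered 18829544 for siNC and 15383081 for siLINP1. Counts were scaled by size factors of 1.08 for siNC and 0.930 for siLINP1, and 19840 genes had at least 10 reads in both libraries together. Gene positions are in GRCh37. LINP1 (chromosome 10, plus strand, 6779344 to 6780901) was counted 167 times in siNC and 23 times in siLINP1, which is a log2 fold change of -2.65 (95% counting interval -3.35 to -2.02). Of 10 squamous keratinocyte markers, 6 were under 1 RPKM (reads scaled to gene length and to the library total) in both libraries, and the list summed to 22.6 RPKM in siNC and 14.95 RPKM in siLINP1. The 8 mesenchymal markers summed to 1563 and 1314 RPKM, of which VIM gave 1519 and 1278 RPKM, and 2 of the 8 were under 1 RPKM in both libraries. In siNC and siLINP1 the median marker was at 0.52 and 0.49 RPKM in the keratinocyte list. It was at 5.74 and 6.04 RPKM in the mesenchymal list. The labelled cell type is therefore weakly marked in both libraries. Of 9 lymphocyte markers, 9 were under 1 RPKM in both libraries and 5 had 0 reads. Among the 5 was DNTT, the polymerase that adds bases during antigen receptor joining, for which 0 reads allow up to 3 per library. RAG1, of the same list and named after its values were seen, had 58 reads in each library, or 0.47 RPKM in siNC and 0.57 RPKM in siLINP1. The part of cell identity in the results was not tested.

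The siRNAs are shown first because their seed, bases 2 to 8 of the guide strand, can also pair with other mRNAs. The guide strands below were derived from the target sequences in the oligonucleotide list of the study, which does not say which siRNA was sequenced. The seed stands in capitals. The target of siLINP1_01 lies on chromosome 10 from 6780757 to 6780775 and that of siLINP1_02 from 6780487 to 6780505, each in the last exon of all 4 LINP1 transcripts annotated by GENCODE.
siLINP1_01: uCUGAAGUcccgcaguugg
siLINP1_02: uCUUGCAGgcuggagagug

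A match to either seed was found in the 3′UTR of 4 of the 9 genes (44.4%), against 23.5% of 18529 coding genes with a 3′UTR. These were TP53BP1 and NHEJ1 for siLINP1_01 and PRKDC, LIG4 and NHEJ1 for siLINP1_02. Taken singly, the seed of siLINP1_01 matched in 14.8% of those coding genes and that of siLINP1_02 in 12.2%. These background shares were not matched to the 9 genes for 3′UTR length. The sites are given with 10 bases on either side and the 7 matching bases in capitals, named by gene, siRNA and first base in the 3′UTR of the canonical transcript. A site each is printed for TP53BP1 and LIG4, which had the 2 largest log2 fold changes among the 9 genes, both above 0.
TP53BP1, siLINP1_01, base 3001: ctgtcattccACTTCAGctcaccaact
LIG4, siLINP1_02, base 417: aataaaagcaCTGCAAGaaaatagggt

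The 3′UTRs differ in length, from 226 bases in XRCC6 to 7024 in NHEJ1. The annotated 3′UTR of NHEJ1 alone is longer than the whole gene of 2103 bases in the count table, so reads from its distal part need not have been counted. TP53BP1 has a 3′UTR of 4322 bases and a gene of 6356 bases in the count table. Whether its printed site at base 3001 lies in the counted part was not checked. Whether any of these sites was bound was not tested, and a match says only that the letters are present.

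Across the 9 genes the log2 fold change of siLINP1 against siNC ran from -0.28 for XRCC6 to 0.55 for LIG4, with a median of 0.047, and the median of all genes kept was -0.023. None of the 9 passed 1.5-fold in either direction when scaled by size factors, against 14.4% of all genes kept that were higher and 13.0% that were lower by more than 1.5-fold. Scaled by total count, LIG4 passed 1.5-fold. By size factors the counting intervals of LIG4 (up to 0.72) and TP53BP1 (up to 0.62) ran past 1.5-fold (0.585). The number of genes past 1.5-fold is thus not fixed within counting error. The counting interval lay above 0 for 3 genes (LIG4, TP53BP1 and PRKDC) and below 0 for 2 (XRCC6 and XRCC5), and it held 0 for the other 4. In all genes kept, the interval lay above 0 for 23.0% and below 0 for 25.6%. Intervals that did not hold 0 were more frequent with more reads. They made up 50.8% of genes with 100 to under 1000 reads in both libraries together, 71.0% with 1000 to under 10000 and 91.2% with 10000 or more. All 9 genes lie in these classes, so an interval off 0 is common at their depth.

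Folds past 1.5 were less frequent with more reads. They made up 22.8% of 6265 genes with 100 to under 1000 reads in both libraries together, where 3 of the 9 genes lie, 9.18% of 6583 genes with 1000 to under 10000 reads, which hold 4, and 7.17% of 488 genes with 10000 or more, which hold XRCC6 and PRKDC. The NHEJ genes are thus mostly in classes where such folds are few.

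**Figure D1:**
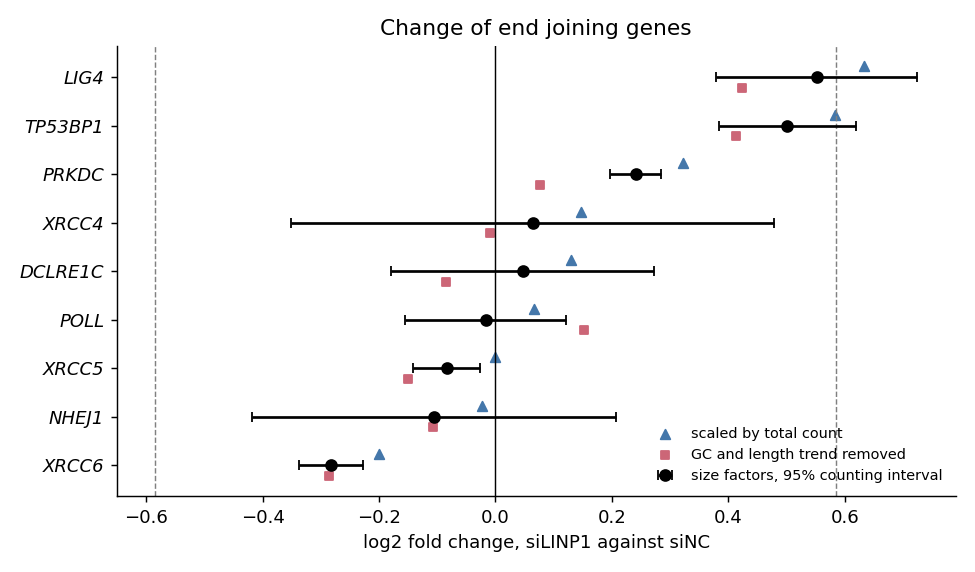
Log2 fold change of each NHEJ gene in siLINP1 against siNC (horizontal axis), with 1 library per condition. Black points and bars give the value by size factors and its 95% counting interval, triangles the value scaled by total count, squares the value after removal of the trend with GC content and length, and dashed lines mark 1.5-fold. The point of LIG4 lies at 0.55 and is past the dashed line only when scaled by total count (0.63), while the bars of LIG4 and TP53BP1 cross that line. XRCC6 lies at -0.28.

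The Ku subunits were the most abundant of the 9 transcripts per length and were lower in siLINP1 by size factors. XRCC6 encodes Ku70 and lies on chromosome 22 (plus strand, 42017167 to 42060052). Its read count was 6399 in siNC and 4548 in siLINP1, or 146 and 127 RPKM. Its log2 fold change was -0.28 (95% counting interval -0.34 to -0.23), and the interval stayed below 0 by each scaling tried. Among the 488 genes with 10000 or more reads the median log2 fold change was -0.20, and 39.3% had a value as low as XRCC6 or lower, so its difference is common at this depth. The table also lists 5 pseudogenes named after XRCC6 or DCLRE1C, each with at most 1 read in either library.

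XRCC5 encodes Ku80, the subunit that LINP1 is known to bind, and lies on chromosome 2 (plus strand, 216974020 to 217071016). It had 5417 and 4422 reads, or 83.9 and 83.8 RPKM, in siNC and siLINP1. The log2 fold change was -0.083 (95% counting interval -0.14 to -0.026) by size factors and -0.0011 (-0.059 to 0.056) by total count, so by total count no difference of XRCC5 was detectable beyond counting error. Within a library, where scaling has no part, the ratio of XRCC6 to XRCC5 per length was 1.74 in siNC and 1.52 in siLINP1. This ratio changed by a factor of 0.871 (95% counting interval 0.824 to 0.920).

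PRKDC encodes DNA-PKcs, the kinase that Ku brings to the break. It lies on chromosome 8 (minus strand, 48685669 to 48872743) and, at 13506 bases, was the longest of the 9. Its read count was 8597 in siNC and 8785 in siLINP1, or 33.8 and 42.3 RPKM. The log2 fold change was 0.24 (95% counting interval 0.20 to 0.28), above 0 by each scaling tried. Among the 488 genes with 10000 or more reads, 9.43% had a value at least as high. After removal of the trend with GC content and length it was 0.076. The ratio of PRKDC to XRCC5 changed by a factor of 1.25 (95% counting interval 1.19 to 1.32) and that of PRKDC to XRCC6 by 1.44 (1.37 to 1.51). Both ratios were thus higher in the siLINP1 library than in the siNC library beyond counting error, and the spread between cultures is not known. With the trend removed, PRKDC (0.076) still lay above XRCC5 (-0.15) and XRCC6 (-0.29).

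LIG4 encodes DNA ligase IV, which seals the break, and lies on chromosome 13 (minus strand, 108859790 to 108870716). Its read count was 493 in siNC and 625 in siLINP1, or 6.01 and 9.32 RPKM, and the counting intervals of these levels did not overlap (5.49 to 6.56 and 8.61 to 10.1 RPKM). The log2 fold change of 0.55 (95% counting interval 0.38 to 0.72), a fold of 1.47, was the largest of the 9. Of the 6583 genes with 1000 to under 10000 reads, 6.46% had a log2 fold change at least as high.

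XRCC4, which holds DNA ligase IV in its complex, showed no difference detectable at its depth. It lies on chromosome 5 (plus strand, 82373228 to 82649579) and had 105 and 95 reads, or 2.69 and 2.98 RPKM. Its log2 fold change of 0.065 has a wide interval of -0.35 to 0.48, which overlaps that of LIG4. The ratio of LIG4 to XRCC4 per length went from 2.23 to 3.13, a factor of 1.40 (95% counting interval 1.02 to 1.92).

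NHEJ1 encodes XLF, which bridges the ends with XRCC4, and lies on chromosome 2 (minus strand, 219940046 to 220025587). Its read count was 194 in siNC and 156 in siLINP1, or 4.90 and 4.82 RPKM, with a log2 fold change of -0.11 (95% counting interval -0.42 to 0.21). The ratio of NHEJ1 to XRCC4 changed by a factor of 0.889 (0.618 to 1.28), which was not distinguishable from no change at this depth.

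The enzymes that process the ends differed little. DCLRE1C encodes the nuclease Artemis and lies on chromosome 10 (minus strand, 14946610 to 14996431). It had 347 and 310 reads, or 2.64 and 2.89 RPKM, with a log2 fold change of 0.047 (95% counting interval -0.18 to 0.27). POLL encodes DNA polymerase lambda and lies on the minus strand of the same chromosome from 103338639 to 103348027. It had 931 and 796 reads, or 17.2 and 18.0 RPKM, with a log2 fold change of -0.017 (-0.15 to 0.12). The sign of POLL turned with the scaling (0.066 by total count), and its interval stayed within 1.5-fold in both directions.

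TP53BP1 encodes a scaffold protein that acts on the chromatin around the break, and lies on chromosome 15 (minus strand, 43699412 to 43802707). Its read count was 1079 in siNC and 1321 in siLINP1, or 9.02 and 13.5 RPKM. The log2 fold change was 0.50 (95% counting interval 0.38 to 0.62), and 0.41 after removal of the trend with GC content and length. Of the genes with 1000 to under 10000 reads, 7.78% had a value at least as high.

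Compared per length, the 9 transcripts kept the same order in both libraries: XRCC6, XRCC5, PRKDC, POLL, TP53BP1, LIG4, NHEJ1, XRCC4 and DCLRE1C. In siNC they spanned from 146 to 2.64 RPKM. XRCC6 stood above 97.4% and DCLRE1C above 30.1% of the coding genes kept. Neighbours in this order differed beyond counting error, except XRCC4 and DCLRE1C in both libraries and LIG4 and NHEJ1 in siNC. The recognition proteins were thus encoded by far more mRNA per length than the ligase complex.

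**Figure D2:**
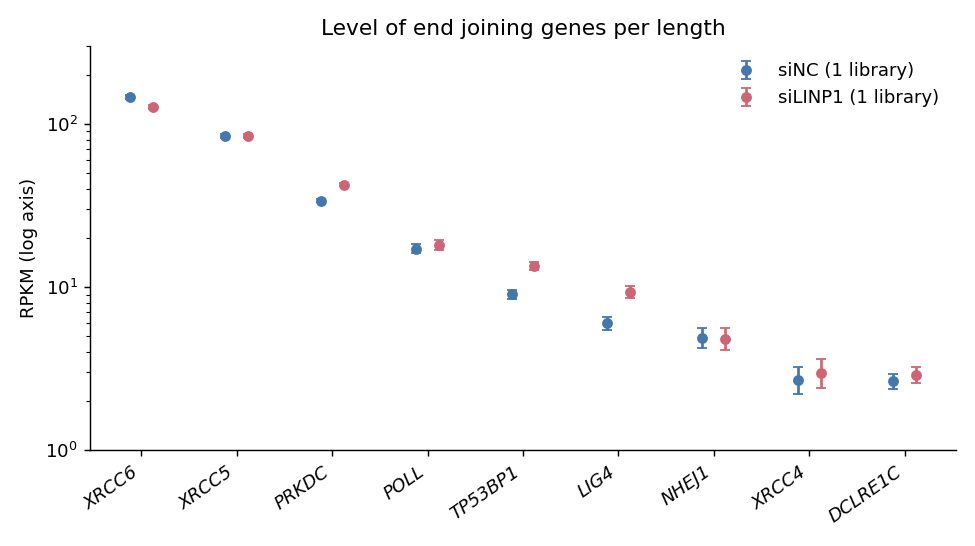
Level of the 9 NHEJ genes in RPKM on a log axis, in order of the siNC library, with 1 point per library and bars for the 95% Poisson counting interval. XRCC6 is highest (146 and 127 RPKM) and DCLRE1C lowest (2.64 and 2.89 RPKM), and the libraries separate most for LIG4, TP53BP1 and PRKDC.

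The direction of the NHEJ genes was set beside GC content and length, since both moved with the fold change in all genes. Among 12434 genes with at least 100 reads and a known GC content, split into 5 equal groups, the median log2 fold change was 0.085 in the group with the lowest GC content and -0.20 in that with the highest. It was -0.19 in the group of shortest genes and 0.086 in that of longest genes. The 3 genes with the interval above 0 were 4358 bases (LIG4), 6356 bases (TP53BP1) and 13506 bases (PRKDC) long, and LIG4 had the lowest GC content of the 9, 35.2%. DCLRE1C, at 6977 bases, was longer than LIG4 and TP53BP1 but lay at 0.047, and XRCC4, with a GC content of 35.7%, lay at 0.065, both with intervals that held 0. XRCC6 was 2326 bases long with a GC content of 48.4%. With the trend removed, LIG4 and TP53BP1 were at 0.42 and 0.41, XRCC6 at -0.29 and XRCC5 at -0.15. XRCC4 (-0.0098) and DCLRE1C (-0.085) then turned below 0 and POLL (0.15) above 0. How far a length or GC bias of the libraries takes part in these values was not tested.

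**Figure D3:**
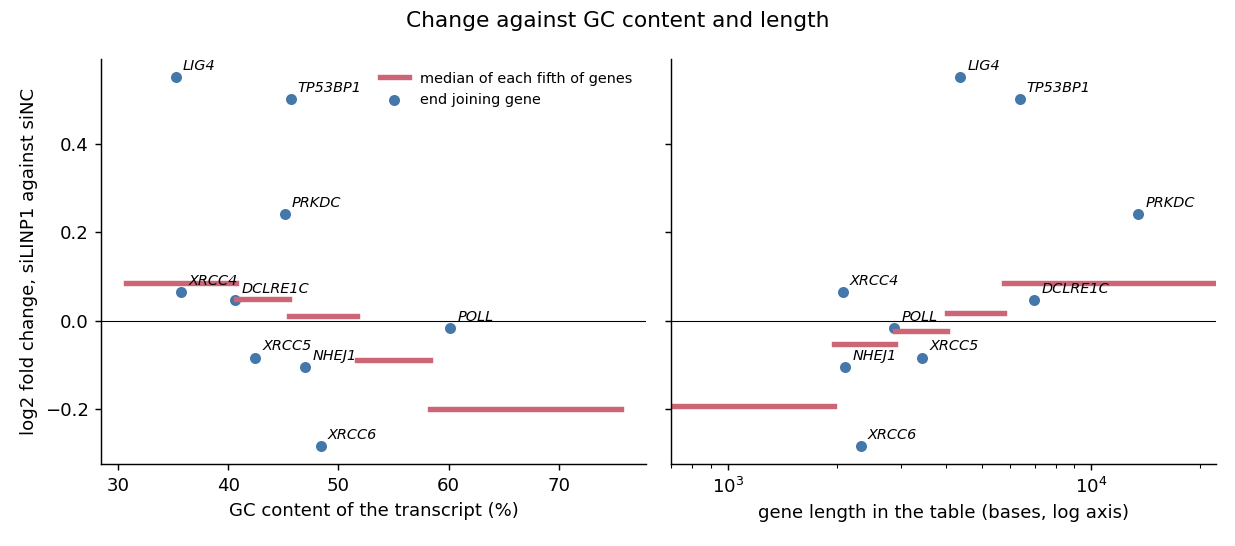
Log2 fold change of the 9 NHEJ genes (points) against the GC content of the GENCODE canonical transcript in percent and against the gene length of the count table in bases, with length on a log axis where the outermost groups run past the plotted range. Bars give the median of each of 5 equal groups of 12434 genes, which falls from 0.085 to -0.20 with GC content and goes from -0.19 to 0.086 with length, while LIG4 and TP53BP1 lie at 0.55 and 0.50.

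A feature of position that the choice did not use is shared by many of the 9. There were 5 genes (55.6%) with a head-to-head neighbour, a gene on the opposite strand that starts within 1 kb, against 26.4% of the 14275 coding genes kept. The coding genes kept had at least 10 reads, while each of the 9 had at least 200, so this share was not matched for depth. PRKDC starts 20 bases from MCM4, a helicase subunit of DNA replication, POLL 18 bases from DPCD, LIG4 47 bases from ABHD13, XRCC6 106 bases from DESI1, and XRCC4 44 bases from TMEM167A, which it overlaps by 45 bases. Reads in that overlap cannot be assigned without strand.

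In 3 of the 5 pairs the intervals of the NHEJ gene and its neighbour did not overlap, against 42.1% of 851 head-to-head pairs of coding genes with at least 100 reads each. With so few pairs the NHEJ genes are not set apart from this background. DESI1 was counted 843 times in siNC and 908 times in siLINP1, with a log2 fold change of 0.32 (95% counting interval 0.18 to 0.45), opposite in sign to XRCC6. MCM4 had 2331 and 1921 reads, with a log2 fold change of -0.070 (-0.16 to 0.018), while PRKDC was at 0.24. ABHD13 had 387 and 370 reads and a log2 fold change of 0.14 (-0.065 to 0.35), an interval that lies below the 0.38 at which the interval of LIG4 starts. TMEM167A, with 1104 and 898 reads, was at -0.088 (-0.22 to 0.040). DPCD, with 402 and 366 reads, was at 0.074 (-0.13 to 0.28). Both intervals held 0, like those of XRCC4 and POLL.

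**Figure D4:**
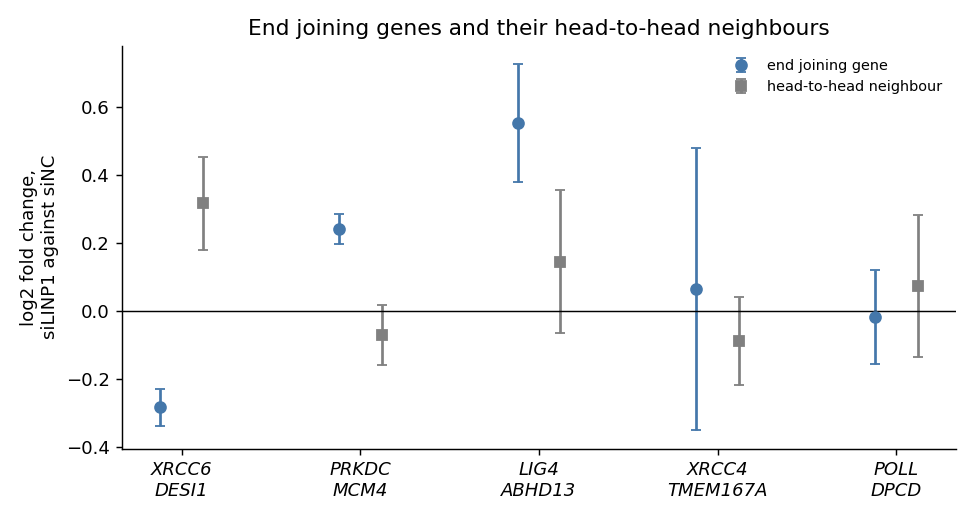
Log2 fold change of the 5 NHEJ genes with a head-to-head neighbour (circles) and of that neighbour (squares), with 95% counting intervals and 1 library per condition. The intervals are apart for XRCC6 and DESI1, PRKDC and MCM4, and LIG4 and ABHD13, and overlap for XRCC4 and TMEM167A and for POLL and DPCD.

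The promoters of the genes with the largest differences are shown because they start opposite to such a neighbour (XRCC6, LIG4) or carry a large difference without one (TP53BP1). RefSeq promoter windows, 250 bases before to 50 after a start in GRCh38.p14, were matched for 7 of the 9 genes. XRCC5 and PRKDC are named only. For genes with several windows the most upstream was taken. Capitals mark matches, on either strand, to CCAAT (NF-Y), GGGCGG (Sp1), CGGAAG (ETS factors), GCGCATGC (NRF1), TGACGT (CRE) and TGACTCA (AP-1). The XRCC6 window is chr22:41621045-41621344 on the plus strand, that of LIG4 chr13:108218300-108218599 and that of TP53BP1 chr15:43510591-43510890, both on the minus strand.
XRCC6: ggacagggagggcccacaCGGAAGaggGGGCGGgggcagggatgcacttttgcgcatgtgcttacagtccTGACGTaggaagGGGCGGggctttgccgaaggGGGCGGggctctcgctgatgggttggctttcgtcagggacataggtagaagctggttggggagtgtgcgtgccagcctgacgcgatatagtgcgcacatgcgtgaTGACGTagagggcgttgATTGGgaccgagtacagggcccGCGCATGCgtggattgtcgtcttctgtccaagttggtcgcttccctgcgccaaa
LIG4: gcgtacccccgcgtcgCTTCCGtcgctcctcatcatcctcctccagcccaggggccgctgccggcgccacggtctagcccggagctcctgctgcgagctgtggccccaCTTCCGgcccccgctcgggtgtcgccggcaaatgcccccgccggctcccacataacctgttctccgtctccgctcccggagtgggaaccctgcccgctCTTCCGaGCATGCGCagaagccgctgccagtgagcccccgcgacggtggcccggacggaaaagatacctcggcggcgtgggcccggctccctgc
TP53BP1: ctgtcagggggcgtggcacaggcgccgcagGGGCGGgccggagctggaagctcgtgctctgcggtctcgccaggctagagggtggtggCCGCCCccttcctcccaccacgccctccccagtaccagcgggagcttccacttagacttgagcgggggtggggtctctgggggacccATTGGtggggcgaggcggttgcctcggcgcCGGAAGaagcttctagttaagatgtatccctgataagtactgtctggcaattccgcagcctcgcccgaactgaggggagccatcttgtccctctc

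The ETS motif was in 6 of the 7 windows, against 19.5% of the 35116 windows outside chromosome 8. Of the 7, NHEJ1 alone lacked it. The Sp1 motif was in 5 (45.0% of all windows), the NF-Y motif in 4 (34.6%) and the NRF1 motif in 2, XRCC6 and LIG4 (3.05%). The CRE motif was found 2 times in XRCC6 and in no other of these windows (7.98% of all), and the AP-1 motif in DCLRE1C (4.95%). The 7 windows had a median GC content of 64.3%, against 58.7% in all windows. XRCC6, LIG4 and TP53BP1 each held the ETS motif.

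The accessory factors of end joining gave values on both sides of 0. Of 10 genes, 6 were higher and 4 lower in siLINP1, with a median log2 fold change of 0.029. Of the 19840 genes kept, 9487 were higher and 10350 lower. TDP1, which removes adducts from ends, had 314 and 346 reads and a log2 fold change of 0.35 (95% counting interval 0.12 to 0.57). C9orf142, which encodes the XLF paralog PAXX, had 836 and 579 reads and a log2 fold change of -0.32, which turned to 0.15 with the trend of GC content and length removed. The only fold past 1.5 in this list was that of APLF, a Ku-binding factor, with 24 and 66 reads and a log2 fold change of 1.67 (0.98 to 2.41). Of all genes kept, 14.4% were higher by more than 1.5-fold. Of the 6504 genes with 10 to under 100 reads in both libraries together, the class of APLF, 51.8% were past 1.5-fold in either direction. C9orf142 and APLF were picked after their values were seen.

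In the list of break signalling and TP53BP1 partners, 14 of 15 genes were matched (SHLD3 was not), and 7 were higher and 7 lower, with a median of 0.0098. By more than 1.5-fold, 2 of the 14 were lower and 1 was higher, against 13.0% and 14.4% of all genes kept. Lower by more than 1.5-fold were MAD2L2, a shieldin subunit, with 744 and 407 reads (log2 fold change -0.66, 95% counting interval -0.84 to -0.48), and NBN, a subunit of the break sensor with MRE11 and RAD50, with 1044 and 589 reads (-0.62, -0.76 to -0.47). Scaled by total count both were within 1.5-fold, at -0.58 and -0.53. With the trend of GC content and length removed, MAD2L2 was at -0.37 and NBN at -0.74. C20orf196, the shieldin subunit SHLD1, had 59 and 77 reads and was the only one higher by more than 1.5-fold, at 0.59 (0.086 to 1.11). FAM35A, the shieldin subunit SHLD2, had 464 and 536 reads and a log2 fold change of 0.42 (0.24 to 0.60). RIF1, a partner of the TP53BP1 protein, had 734 and 833 reads and a log2 fold change of 0.39 (0.25 to 0.54), or 0.21 with the trend removed. H2AFX, the histone that marks breaks, had 3245 and 1920 reads and a log2 fold change of -0.55, or -0.21 with the trend removed. FAM35A, RIF1 and H2AFX were named after their values were seen. Values in this list thus lay on both sides of 0.

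Homologous recombination, the other main route of break repair, had a median log2 fold change of -0.19 over 20 genes, of which 7 were higher and 13 lower. Lower values were also the more frequent in all 19840 genes kept (9487 higher and 10350 lower). By more than 1.5-fold, 1 of the 20 was higher and 1 lower, against 14.4% and 13.0% of all genes kept. RPA1, which coats single-stranded DNA, had 2449 and 1308 reads (-0.70, 95% counting interval -0.79 to -0.60), and BARD1 had 109 and 159 reads (0.75, 0.39 to 1.12). With the trend removed, RPA1 was at -0.75 and BARD1 at 0.63. Alternative end joining had a median of -0.16 over 6 genes, with 2 higher and 4 lower. By more than 1.5-fold, none of the 6 was higher and 1 was lower. LIG1, a DNA ligase of replication and repair, had 953 and 511 reads (-0.69, -0.85 to -0.53, and within 1.5-fold at -0.56 with the trend removed), and FEN1, a flap nuclease, had 1856 and 1240 reads and a log2 fold change of -0.37 (-0.48 to -0.27). Among the ligases, LIG4 was thus at 0.55, LIG1 at -0.69 and LIG3, named after its value was seen, at -0.0065. These medians are a description of 2 libraries, and with 1 library per condition the difference between the lists was not tested.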

How the data were processed

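Total RNA of the siNC and siLINP1 cultures of HSC-1 was sequenced on an Illumina HiSeq instrument by the authors, aligned to GRCh37/hg19 with Tophat2 and counted per gene with HTSeq. The submitters' processing notes also name HISAT2, HISAT and Bowtie2. The role of each tool, the versions, the gene annotation and the strand setting are not given in the sources used here. The authors deposited raw read counts and RPKM values. The deposited RPKM equals the count divided by gene length and library total. A further 12 per-sample columns of the table belong to no sample analysed here and were left out.

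Size factors by the median of ratios scaled the counts, and genes with fewer than 10 reads in both libraries together were left out of list and background counts. A gene was counted as past the threshold beyond 1.5-fold. The 95% interval of a log2 fold change was derived from a Clopper-Pearson interval on the split of its reads between the libraries, that of a level is the exact Poisson interval, and that of a ratio of 2 genes is the exact conditional odds ratio. No p-value was computed, because each condition had 1 library. GC content and 3′UTRs came from canonical transcripts of GENCODE lifted to GRCh37, which gave a GC content for 93.2% of 13336 genes with at least 100 reads. The trend with GC content and length was removed by lowess (fraction 0.3), an alternative added after the data were seen.

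The members and lists were chosen with earlier results of these data known. Named were all 9 genes, LINP1, head-to-head neighbours with at least 10 reads and, in each list, genes past 1.5-fold with at least 100 reads, or the 2 with the largest change where fewer than 2 passed. An item that this rule names and a matching site are not reported here. The interval was tried on simulated Poisson counts, which hold counting error only, so the trial says nothing of the spread between cultures. R 4.3.3 with edgeR 4.0.16 gave TMM factors only. All else was computed in Python 3.11.15 with scipy 1.17.1, pandas 2.3.3, numpy 2.4.6, matplotlib 3.10.9 and, for lowess, statsmodels 0.14.6.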

Additional observations from a re-analysis of the deposited data

How the results depend on the processing

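No paired analysis was possible because each condition had 1 library. Scaled by total count, 1 of the 9 NHEJ genes (LIG4) passed 1.5-fold in place of none, and with TMM factors, size factors from genes with at least 100 reads, pseudocounts of 1 or 5, or the trend removed, none did. The interval lay below 0 for 1 gene in place of 2 by total count and by size factors from genes with at least 100 reads, since that of XRCC5 then held 0. The count above 0 stayed at 3 by each of these scalings and with TMM factors. The median of the 9 genes ranged from -0.0098 with the trend removed to 0.13 by total count. Over all genes, the minimum of reads moved the background most: 7048 genes were higher and 6456 lower by over 1.5-fold with at least 1 read, and 1163 and 903 with at least 100 reads, where fewer genes enter. Protein-coding genes alone gave 1558 and 1492. Depth limits XRCC4, NHEJ1 and DCLRE1C most, and no setting can supply the spread between cultures.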
